A study of Mus musculus with 6 samples.

Results

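MiR-335 is a microRNA made from a hairpin inside Mest, an imprinted gene on mouse chromosome 6. Its rows were chosen by name, as every row of the deposited microRNA table with the mouse prefix whose name reads miR-335 once arm and end marks are removed. This gave 2 of 1560 rows, 1 for the 5p arm and 1 for the 3p arm, of 506 rows with a mouse name. The gene was picked with its difference between the groups already known, so that difference is described here and is not tested.

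The libraries are small RNA from melan-alpha cells, mouse melanocytes that make pigment and divide without limit, kept in RPMI medium containing fetal bovine serum. In the MITF overexpression group (3 libraries) the cells carried the mouse Mitf gene on a lentivirus, and the control group (3 libraries) is labelled as Mitf control, with no empty virus named. All 6 are labelled as extracellular vesicle RNA, although the extraction text speaks of collecting cells, and both groups come from 1 cell line. The labels leave out whether replicates were separate cultures, so the spread between libraries may be technical.

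MicroRNAs are cut from a hairpin transcript as a duplex of a 5p and a 3p arm, and usually 1 arm is kept in the silencing complex while the other is degraded. Mest, also called Peg1, encodes a protein of the hydrolase fold family and is expressed from the paternal copy in the embryo. MiR-335 is known in human breast cancer as a suppressor of metastasis that targets SOX4 and tenascin C, and in human mesenchymal stem cells as a regulator of differentiation. An arm binds its targets mainly through its seed, bases 2 to 8 from the 5′ end.

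The hairpin is shown first because both measured arms are read from it. Capitals in the hairpin mark the 5p arm and then the 3p arm, and capitals in the other sequences mark the seed. The hairpin and the sequences written with U are RefSeq entries on GRCm38.p6, and those written with T are the sequences of the deposited rows.
Mir335 hairpin: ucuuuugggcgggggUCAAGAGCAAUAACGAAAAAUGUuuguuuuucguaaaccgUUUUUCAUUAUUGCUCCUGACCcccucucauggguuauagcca
miR-335-5p, RefSeq: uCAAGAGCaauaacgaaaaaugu
miR-335-5p, deposited: tCAAGAGCaataacgaaaaat
miR-335-3p, RefSeq: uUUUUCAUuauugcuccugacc
miR-335-3p, deposited: tTTTTCATtattgctcctgacc

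The hairpin lies at chr6:30741299-30741396 on the plus strand of GRCm38, and its 98 bases have the same limits in GENCODE M21. The authors' build was mm9, per the submitters' processing notes, so these positions are not those of their files. Of 11 annotated Mest transcripts, 7 have the hairpin in an intron, the other 4 do not span it, and none has it in an exon. The intron runs from 30740825 to 30742140 and is the third of Mest-202 and the second of Mest-211, protein-coding forms that start 3246 and 3249 bases upstream of the hairpin. The Mest transcript itself is not measured by this assay.

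The deposited 5p sequence has 21 of the 23 RefSeq bases. The 2 missing bases are at the 3′ end, which the mark R-2 in the row's name records, so its seed is intact. The 3p sequence has all 22 RefSeq bases. No other row of the table shares the seed of either arm, none holds the first 18 bases of either, and no row of another species carries the name miR-335. The values of both rows were whole numbers, and neither sequence stands in a further row. Neither the labels nor the header say whether other end forms of an arm were added to its row.

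Both arms are rich in A and U. The 5p sequence has 28.6% G and C, with 12 A among its 21 bases, and only 4 of 285 tested mouse-named rows, itself included, have as low a share. The median of these rows is 47.8%. The 3p sequence has 36.4%. In the lowest-energy fold that RNAfold predicts for the hairpin, at -44.3 kcal/mol, 18 of the 23 bases of the 5p arm pair with the 3p arm.

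The 5p arm carried nearly all of the miR-335 signal. Control replicates 1, 2 and 3 held 424, 577 and 600 reads of miR-335-5p. MITF overexpression replicates 1, 2 and 3 held 1188, 739 and 978 reads. Reads in the whole table ran from 279142 to 475977 per library, and the control libraries held 342941, 382350 and 475977 of them against 448969, 279142 and 306062 with MITF overexpression. Within each group the reads of miR-335-5p followed the depth of the library, so the levels below are given per library size.

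As a share of all tabulated reads, miR-335-5p made up 0.124% (exact 95% Clopper-Pearson interval 0.112 to 0.136%), 0.151% (0.139 to 0.164%) and 0.126% (0.116 to 0.137%) in control replicates 1, 2 and 3. With MITF overexpression it made up 0.265% (0.250 to 0.280%), 0.265% (0.246 to 0.285%) and 0.320% (0.300 to 0.340%). No interval of one group reaches into the other group. The intervals cover counting error alone.

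Levels were then scaled to read counts per common library total (CPM) with edgeR's TMM factors, which rest on the premise that most rows do not differ. Values above 0 were listed in 513, 612 and 677 rows in control replicates 1, 2 and 3. They were listed in 992, 860 and 783 rows in MITF overexpression replicates 1, 2 and 3. MiR-335-5p stood at 1386, 1504 and 1355 CPM in control replicates 1, 2 and 3. It stood at 2716, 2507 and 2859 CPM in MITF overexpression replicates 1, 2 and 3. Every MITF overexpression library was above every control library, and the lowest of the first was 1.67 times the highest of the second. The group means were 2694 ± 177 CPM and 1415 ± 78.7 CPM (SD, n = 3). In such bulk libraries more vesicles or cells that carry miR-335 and more miR-335 in each cannot be told apart.

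The fitted level was 1.90-fold higher with MITF overexpression, a log2 fold change of 0.93 ± 0.19 (SE) in edgeR's quasi-likelihood fit over all 441 rows that passed the filter on low counts. The median log2 fold change of these rows was 0.08. The authors' deposited table gives miR-335-5p a fold change of 1.95. Groups that do not overlap, with MITF overexpression higher, were found in 1 of the 2 miR-335 rows, the tested 5p row. They were found in 25.2% of tested rows, and in 49 of the 285 with a mouse name. Groups did not overlap in the other direction in 17.2% of all tested rows. In 27.0% of tested rows, and in 16.8% of the 285 with a mouse name, the log2 fold change was as high as that of miR-335-5p or higher. The size of its difference was thus within the range of many rows.

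**Figure D1:**
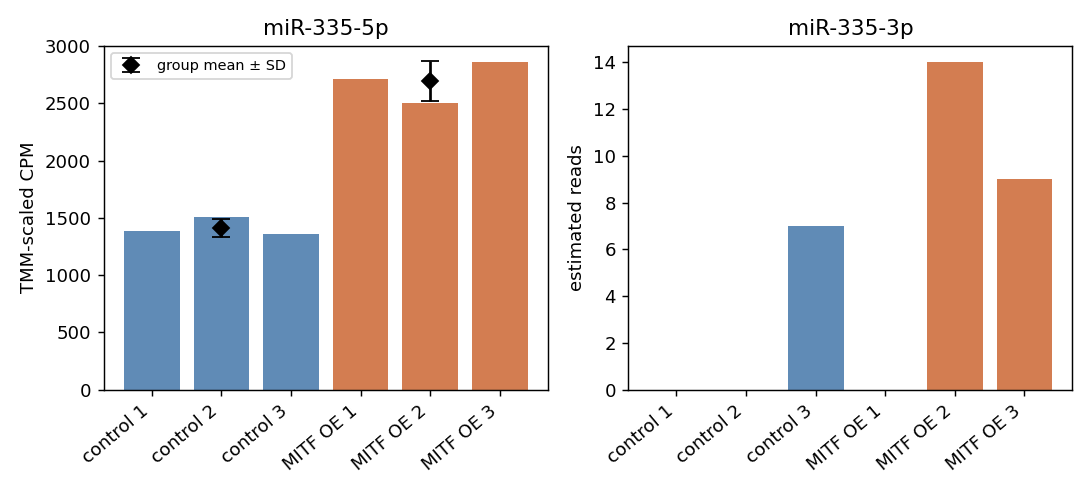
Level of miR-335-5p in TMM-scaled CPM (left) and estimated reads of miR-335-3p (right) in each library, controls in blue and MITF overexpression (MITF OE) in orange, with diamonds for the group mean ± SD (n = 3). The 5p bars sit between 1355 and 1504 CPM in controls and between 2507 and 2859 CPM with MITF overexpression, while the 3p arm is listed at 0 in 3 libraries.

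The replicates of miR-335-5p lay close together. Its coefficient of variation between libraries was 5.56% in controls and 6.58% with MITF overexpression. Counting error alone gives 4.38% and 3.27% at these read numbers. Taken over both groups the coefficient was 6.09%, against a median of 26.2% over the 285 tested mouse-named rows, of which 3, itself included, were as low. Among the 45 such rows whose mean level was within 2-fold of its own, the median was 16.7% and miR-335-5p was the lowest. The next lowest were miR-99b-5p at 8.49% and let-7e-5p at 8.78%. MiR-335 was picked with its difference between these same libraries known, and such a choice can favour a row of low spread. Its place in this order is thus description alone.

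By mean level over the 6 libraries, miR-335-5p was number 58 of the 506 mouse-named rows. Between libraries its place ran from 66 to 74 in controls and from 48 to 52 with MITF overexpression. Levels of different microRNAs are compared here as CPM of molecules of nearly equal length. The row next above it was miR-361-5p, at 2073 ± 356 CPM over the 6 libraries (SD), and the row next below it was let-7d-3p, at 2043 ± 350 CPM. MiR-335-5p itself was at 2054 ± 711 CPM, so the order of these 3 rows is within their spread.

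The order was not the same in both groups. In controls miR-335-5p was at 1415 ± 78.7 CPM, miR-361-5p at 2172 ± 135 CPM and let-7d-3p at 2308 ± 258 CPM (SD, n = 3), and every control library of miR-335-5p was below every control library of the other rows. With MITF overexpression miR-335-5p was at 2694 ± 177 CPM, miR-361-5p at 1974 ± 519 CPM and let-7d-3p at 1778 ± 174 CPM, and every library of miR-335-5p was above all libraries of both. By group mean, miR-335-5p moved from number 70 in controls to number 49.

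**Figure D2:**
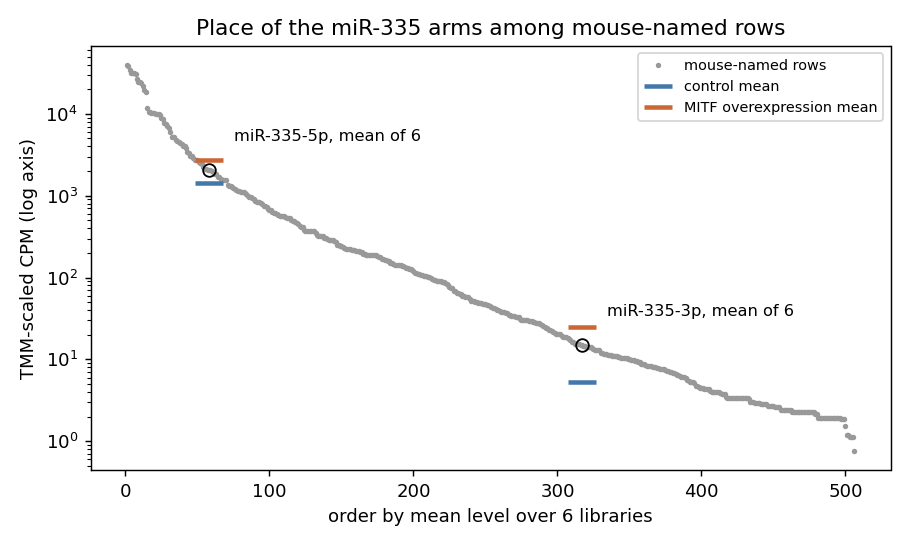
Mean level over 6 libraries of each mouse-named row, in TMM-scaled CPM on a log axis, against its place in that order, with circles for the miR-335 arms and bars for their means in controls (blue) and with MITF overexpression (orange). The 5p arm stands at place 58 and the 3p arm at place 317, more than 2 decades lower.

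The 3p arm had few reads and was number 317 of the 506 mouse-named rows by mean level. MiR-335-3p had 0, 0 and 7 reads in control replicates 1, 2 and 3. It had 0, 14 and 9 reads in MITF overexpression replicates 1, 2 and 3. The groups overlapped, with a 0 in each, and the row did not pass the filter on low counts, so no fold change is given. In CPM the listed values were 15.8 in control replicate 3 and 47.5 and 26.3 in MITF overexpression replicates 2 and 3.

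A listed 0 need not be an absence of reads. Over all rows and libraries, 538 values were exactly 5 reads and only 55 were a whole number from 1 to 4, so counts under 5 are mostly not listed, and a 0 may stand for up to 4 reads. The neighbours of miR-335-3p in the order of levels, miR-191-3p and miR-200c-3p, are also listed at 0 in 2 and 3 libraries. The places of these 3 rows, 316 to 318, are within their spread.

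Of all miR-335 reads, the 5p arm took 98.8% in control replicate 3, and 98.1% and 99.1% in MITF overexpression replicates 2 and 3. It took all listed reads in the other 3 libraries. Summed over libraries there were 4506 reads of the 5p arm and 30 of the 3p arm, with 7 of the latter in controls and 23 with MITF overexpression. The share of the 3p arm was 0.384 ± 0.666% in controls and 0.924 ± 0.930% with MITF overexpression (SD, n = 3), a difference smaller than the spread.

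In controls the library with the most 5p reads, replicate 3 with 600, was the only one with 3p reads listed, at 7. The order differed with MITF overexpression. MITF overexpression replicate 1 had the most 5p reads, 1188, and 0 of the 3p arm. MITF overexpression replicate 2 had the fewest 5p reads of its group, 739, and the most of the 3p arm, 14. The 3p share of the latter was 1.86% (exact 95% Clopper-Pearson interval 1.02 to 3.10%). Had replicate 1 held 4 unlisted 3p reads, its share would have been 0.336%, below that interval.

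Both arms were listed for 111 mouse hairpins, and in 61 of them the 5p arm was the larger. The larger arm took a median of 91.7% of the summed level. For miR-335 it took 99.3%, and 22 hairpins, itself included, had as high a share. All 22 were among the 62 hairpins with a summed level of at least 500 CPM, where the median was 97.1%. No hairpin below 500 CPM had as high a share. Since counts under 5 are mostly not listed, a hairpin of low level with both arms listed can seldom show such a share. Hairpins without both arms listed were left out of this comparison. The absence of such shares below 500 CPM thus says little about arm choice.

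**Figure D3:**
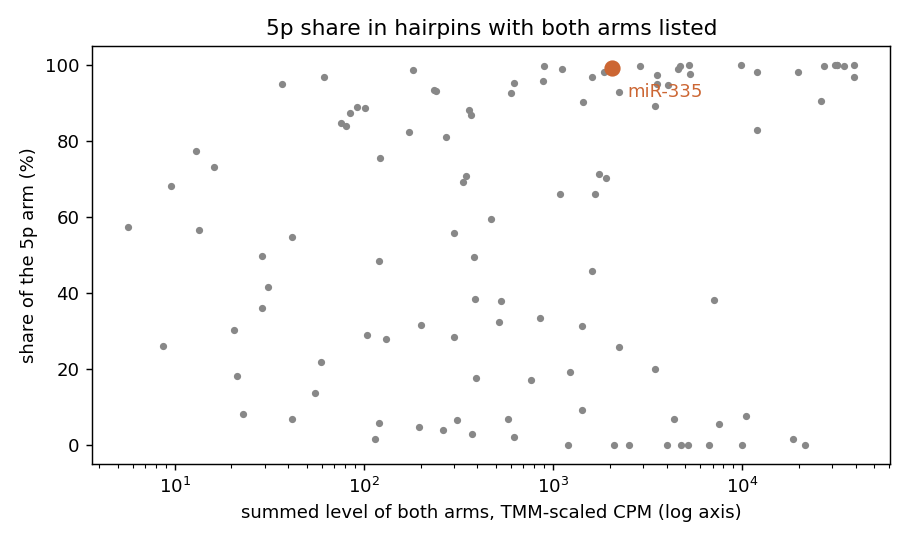
Share of the 5p arm in the summed level of both arms, in %, against that summed level in TMM-scaled CPM on a log axis, for the 111 mouse hairpins with both arms listed (miR-335 in orange). MiR-335 lies in the upper band, with 99.3% of its level in the 5p arm.

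The rows with the most similar pattern were looked for among the other 240 mouse-named rows with a mean of at least 50 CPM. The measure was the root mean square difference over the 6 libraries between log2 levels centred on each row's mean, and its median was 0.66. The smallest was 0.15, for miR-494-3p, a microRNA of the imprinted Dlk1-Dio3 cluster on chromosome 12. Then came miR-145a-3p at 0.18, a variant of mir-692-2 that carries a substitution at 0.20, miR-369-3p, also of the Dlk1-Dio3 cluster, at 0.22, and miR-125b-5p at 0.23. Since most of the pattern of miR-335-5p is the step between the groups, a small value mainly says that a row had a step of like size.

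MiR-494-3p stood at 262, 368 and 332 CPM in control replicates 1, 2 and 3. It stood at 690, 536 and 599 CPM with MITF overexpression. Its groups did not overlap, and its log2 fold change was 0.92 ± 0.25 (SE), next to 0.93 for miR-335-5p. MiR-369-3p was at 2132, 2742 and 3055 CPM in controls and at 6371, 4152 and 5593 CPM with MITF overexpression, a log2 fold change of 1.02 ± 0.24. Both rows had their highest value in MITF overexpression replicate 1, whereas miR-335-5p had its highest in replicate 3.

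MiR-145a-3p, the 3p arm of a smooth muscle and fibroblast microRNA, was at 89.7 ± 10.5 CPM in controls and 175 ± 43.6 CPM with MITF overexpression (SD, n = 3). The mir-692-2 variant was at 203 ± 29.9 CPM and 370 ± 32.4 CPM. MiR-125b-5p, an abundant microRNA of many cell types, was at 963 ± 95.7 CPM and 1408 ± 126 CPM. Its log2 fold change of 0.55 ± 0.20 was the smallest of the 5. The groups did not overlap in any of the 5 rows, an outcome favoured by picking them for likeness to miR-335-5p in the same libraries. Over all tested rows, groups did not overlap, with MITF overexpression higher, in 25.2%, and in 49 of the 285 with a mouse name.

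**Figure D4:**
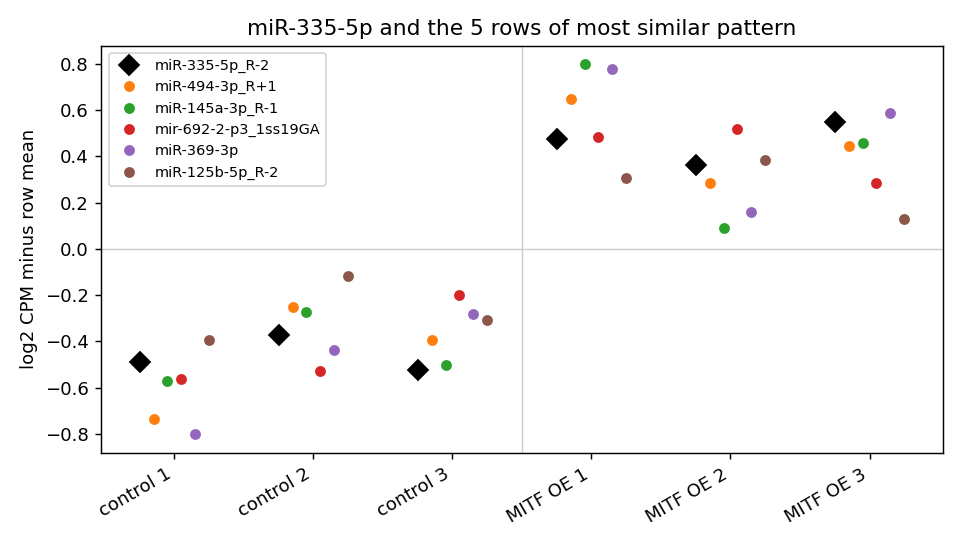
Log2 CPM minus the row's mean over the 6 libraries for miR-335-5p (black diamonds) and the 5 mouse-named rows with the smallest root mean square difference from it (coloured dots), by library, with dots set side by side for legibility. Every row is below its mean in the 3 controls and above it in the 3 MITF overexpression libraries, which the choice of rows by likeness favours.

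MicroRNAs of other imprinted loci were counted beside miR-335. In the Dlk1-Dio3 cluster, whose microRNAs are expressed from the maternal copy, 29 rows were listed and 14 were tested. By edgeR's quasi-likelihood test, with p-values adjusted by Benjamini-Hochberg over all tested rows, 6 of the 14 rose and none fell. Over all tested rows 9.98% were called higher and 5.22% lower, and of the 285 with a mouse name 22 and 15 rows. The median log2 fold change of the 14 was 1.31, and 11 were positive. The list was chosen with earlier results of these data known, and a row can pass the low-count filter through the group where it is high. MiR-409-3p, among the called rows, was listed at 0 in 2 controls and passed through its MITF overexpression libraries. These counts and the median are thus description alone. Calls over the whole table fell from 67 to 0 without MITF overexpression replicate 3, to 11 without control replicate 2 and to 14 without MITF overexpression replicate 2, and the calls named here and in the marker lists come from the fit with all 6 libraries. The summed level of the cluster ran from 3384 to 4635 CPM in controls and from 9101 to 10482 CPM with MITF overexpression. Most of it came from miR-369-3p, with means of 2643 CPM in controls and 5372 CPM with MITF overexpression, so the sum says little about the lesser rows.

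The rows of the cluster were not all alike to miR-335-5p. Among the 10 of them with a mean of at least 50 CPM, miR-494-3p and miR-369-3p held places 1 and 4 of 240 in similarity, and miR-136-3p and miR-493-5p held 22 and 24. MiR-127-3p, read from the strand opposite to the Rtl1 gene, held place 76. Its libraries read 546, 1006 and 616 CPM in controls and 1897, 3297 and 1962 CPM with MITF overexpression, with its highest value in replicate 2.

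Of the other imprinted loci on the list, 4 rows were found and 1 was tested. That row was miR-184-3p, a microRNA abundant in the eye, at 191 ± 27.1 CPM in controls and 139 ± 67.4 CPM with MITF overexpression (SD, n = 3), and it did not pass the test, with an adjusted p of 0.465 by edgeR. The other 3 rows, variants of the Sfmbt2 cluster, had a value above 0 in MITF overexpression replicate 2 alone. Each was listed there at the same 1.67 estimated reads, so they need not be separate signals. No mouse-named row was listed for miR-675 of H19, miR-483 of Igf2 or miR-296 and miR-298 of the Gnas locus. MiR-184-3p and miR-335-5p were the 2 tested rows from imprinted loci outside Dlk1-Dio3 among those looked up.

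**Figure D5:**
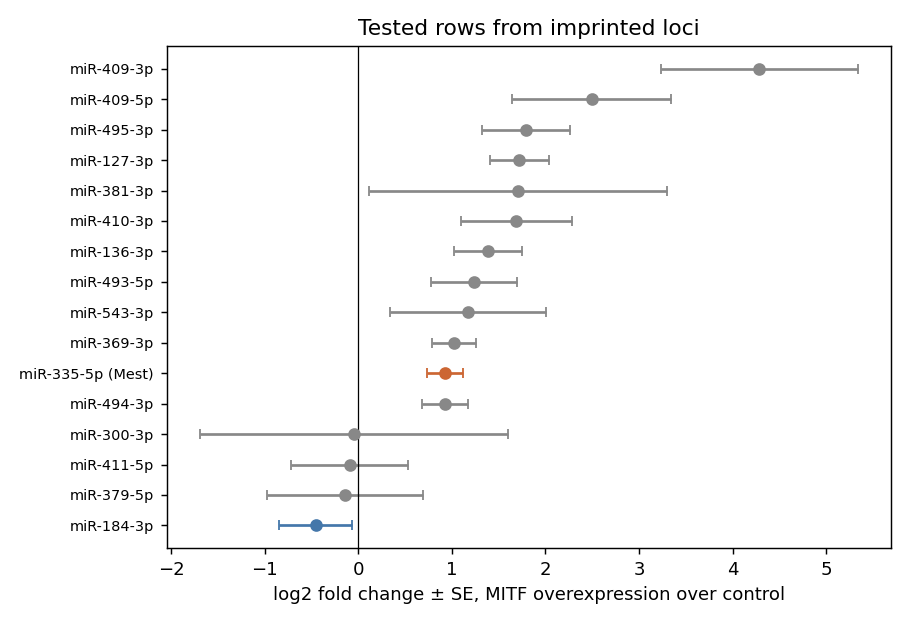
Log2 fold change ± SE of MITF overexpression over control for each tested row from an imprinted locus, with Dlk1-Dio3 rows in grey, miR-184-3p in blue and miR-335-5p in orange. MiR-335-5p lies at 0.93 with the narrowest error bar of the rows shown, among Dlk1-Dio3 rows that run from -0.14 to 4.28, the latter for miR-409-3p, which is listed at 0 in 2 controls and has a fold change that depends on the prior count.

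Markers of several cell types differed between the same groups as miR-335-5p. Both arms of miR-211, the microRNA of melanocytes encoded in Trpm1, rose, and their summed level ran from 1932 to 2714 CPM in controls and from 4392 to 5651 CPM with MITF overexpression. Of the fibroblast and mesenchymal list, 3 of 7 tested rows rose and none fell. Its sums were 5712 to 6526 CPM in controls and 7089 to 10022 CPM with MITF overexpression, and none of its 5 microRNAs was at 0 throughout. Most of these sums came from miR-143-3p, at 4436 ± 428 CPM in controls and 5907 ± 490 CPM with MITF overexpression (SD, n = 3). That row was not called, with an adjusted p of 0.155 by edgeR. Log2 fold changes were positive in 6 of the 7 rows, and that of miR-199b-3p, the next most abundant, was -0.09. Of the blood cell list 4 of 8 tested rows rose and none fell, with sums of 1661 to 2583 CPM and 4853 to 8838 CPM, and of its 7 microRNAs miR-486a had no row. The liver microRNA miR-122 rose, with sums of 8848 to 16385 CPM and 22727 to 102987 CPM. Over all tested rows 9.98% were called higher with MITF overexpression and 5.22% lower, and of the 285 with a mouse name 22 and 15 rows. These lists too were chosen with earlier results known, and a row can pass the low-count filter through the group where it is high. The part of these cell types in the level of miR-335-5p was not tested.

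MITF overexpression replicate 1 held the highest levels of miR-122 and of the endothelial microRNA miR-126a. Neither of the 2 tested rows of miR-126a passed the test, and they summed to 9080 CPM in that library, to 1825 and 2926 CPM in MITF overexpression replicates 2 and 3 and to 2233 to 2409 CPM in controls. Without that library the log2 fold change of miR-335-5p was 0.90 ± 0.23 (SE). The muscle list, of which no row was tested, summed to 1447 CPM in control replicate 3, to 62.1 and 23.5 CPM in control replicates 1 and 2 and to 11.7 to 33.9 CPM with MITF overexpression. MiR-335-5p was at 1355 CPM in control replicate 3, against 1386 and 1504 CPM in the other controls, and without that library its log2 fold change was 0.96 ± 0.26 (SE). Leaving out a library does not test the part of a cell type in miR-335-5p. The blood cell and mesenchymal sums were higher in every MITF overexpression library than in any control. Epithelial and keratinocyte rows were low throughout, at 51.9 to 141 CPM in controls and 43.9 to 302 CPM with MITF overexpression, and miR-141 had no row.

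The culture medium held bovine serum. No cow sequence was used here, so bovine reads with the same letters as mouse miR-335 would be counted in the mouse rows and cannot be told apart. The 93 cow-named rows summed to 17298, 33256 and 22838 CPM in control replicates 1, 2 and 3 and to 19313, 19423 and 13138 CPM with MITF overexpression. These sums overlapped between the groups, and their mean was lower with MITF overexpression. Bovine reads counted in mouse rows are not part of these sums. The part of serum RNA in the level of miR-335-5p was not tested.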

How the data were processed

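Per the labels' protocols, the TruSeq kit for small RNA was used. The authors deposited estimated counts per row and library, which need not be whole, and a normalized signal. The latter equals the deposited count divided by 1 factor per library, which was checked on the file. For the rule behind the factor, the aligner and the counter: not given in the sources used here. Their deposited group means of that signal, fold change, its log2 and an unadjusted p-value stand beside them, and that p-value is not used here. The table of read classes was not used here. Reads per library ran from 279142 to 475977.

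After rounding to whole numbers, the estimated counts were fitted with edgeR 4.0.16 in R 4.3.3 (TMM, filterByExpr with a minimum count of 10, quasi-likelihood, group as the only term, all 6 libraries). The design had allowed for counts or rounded estimated counts, and the latter were used. Benjamini-Hochberg adjustment ran over 441 tested rows, with a threshold of 0.05. Log2 CPM for the pattern comparison used a prior count of 2. The procedure was tested on simulated data. Alternatives were DESeq2 1.42.0, other scalings and filters, a replicate block and leaving out each library. Hairpin folding used ViennaRNA 2.7.2.

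MiR-335 and all lists were chosen with earlier results of these data known. Named rows were the miR-335 rows, their neighbours in level, the 5 rows of most similar pattern and up to 3 rows with values from the imprinted lists. Marker rows are given mainly as sums, and miR-99b-5p, let-7e-5p, miR-143-3p and miR-199b-3p were named after their values were seen.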

Additional observations from a re-analysis of the deposited data

How the results depend on the processing

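The log2 fold change of miR-335-5p was positive under all 14 alternatives run, from 0.88 to 1.09. It moved by more than the spread between replicates under 2 of them, to 1.09 with total-count scaling, where the median of all tested rows moved by 0.16 as well, and to 1.04 without MITF overexpression replicate 2. With no filter on low counts it was 0.88, below the median of 1.96 over all 1560 rows. The log2 fold change of miR-335-5p ran from 0.88 to 1.04 with 1 library left out. With the rows of both arms summed it was 0.94, it was 1.10 with total-count scaling, and it ran from 0.89 to 1.04 with 1 library left out. The mean 5p share of miR-335 reads was 99.3%, and 99.2% to 99.6% with 1 library left out. The alternative of using only rows without an end mark could not be run for the arms, since the 5p row carries one.

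The calls over all rows, which give the background for the Dlk1-Dio3 counts, depended more on the setting. There were 67, of which 65.7% were higher, and with total-count scaling 80.5% were higher. DESeq2's Wald test gave 110. With 1 library left out the number ran from 0 to 56. It was 0 without MITF overexpression replicate 3, where 135 rows had an unadjusted p under 0.05 by edgeR, 11 without control replicate 2 and 14 without MITF overexpression replicate 2. A fit with the replicate number as a block gave 2 calls and a log2 fold change of miR-335-5p of 0.93. The deviations of same-numbered libraries correlated at -0.05, 0.04 and -0.01, so the numbers were not taken to pair the libraries. The causes of these differences were not tested. Depth limits the 3p arm, of which 30 reads were listed in all.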
